A study of Mus musculus with 12 samples.

Results

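The 9 genes described here lie on mouse chromosome 11. They are Btnl9, the nearby olfactory receptor gene Olfr1396, and Zfp62, Mgat1, Cnot6, Gfpt2, Mapk9, Ltc4s and Olfr1372-ps1 from the same part of the chromosome. All 9 were found by name among the 24011 genes measured. The members were chosen by name when the values of the double knockout arrays were already known, and thus selected on the difference between double knockout and wild type, Btnl9 and Olfr1396 having among the largest differences there. Every contrast that holds those arrays is therefore given for the 9 genes as a description, as log2 differences with their standard error (SE) and no test.

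The study compared liver sinusoidal endothelial cells (LSECs) that lacked one or both stabilins. LSECs are the thin, porous endothelium of the liver's capillaries and take up waste from the blood. They were purified with magnetic beads against CD146, a surface protein that other endothelium also carries, from C57BL/6J mice aged 3 to 4 months, and RNA was taken without culture. The 12 Affymetrix arrays fell into 4 genotypes of 3 arrays. WT mice had both genes, Stab1KO mice lacked Stab1, Stab2KO mice lacked Stab2, and DKO mice lacked both. Each array held RNA pooled from 3 mice, so an array shows the mean of its pool, and each pool was a separate biological replicate of its genotype. How the alleles were made, how the lines were bred and whether the genotypes shared litters is not given in the sources used here, so differences of genotype and of colony cannot be told apart. Values are log2 expression values, in which a step of 1 is a doubling, and without detection calls the share of background in a low value is unknown. A gene is said to be called in a contrast where limma, a linear model fitted to all genes at once, gave a p below 0.05 after Benjamini-Hochberg adjustment over all 24011 genes. The p-values measure the spread between pools of mice.

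Butyrophilin-like proteins are membrane proteins of the immunoglobulin superfamily, related to the B7 molecules that steer T cells, and Btnl9 is known as a gene that endothelial cells express. Olfactory receptors are G protein-coupled receptors for odours. Their genes stand in tandem clusters, and each sensory neuron of the nose normally uses a single one, so they are not typical genes of the liver. The other members have unrelated roles: Mgat1 opens the way to complex N-glycans, Cnot6 is a subunit that shortens messenger RNA tails, Gfpt2 feeds the hexosamine pathway, Mapk9 encodes the stress kinase JNK2, Ltc4s makes leukotriene C4, and Zfp62 encodes a zinc finger protein.

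The deleted genes followed the labels on every array. Stab1, on chromosome 14, was lower in Stab1KO than in WT by a log2 difference of -7.24 ± 0.12 (SE, 3 arrays per genotype), and Stab2, on chromosome 10, was lower in Stab2KO by -6.24 ± 0.44. The pairwise correlation of arrays over all genes was at least 0.987 among 11 arrays. DKO replicate 3 stood apart, with correlations between 0.956 and 0.968 to the other 11, and its 14 neutrophil markers had a mean log2 value of 11.49, against 6.10 and 6.49 in the other DKO arrays and 5.26 to 5.62 in WT. The mean of 14 LSEC markers lay between 12.74 and 13.05 on all 12 arrays, and limma called 0 of them in each of the 6 pairwise contrasts, with 0 to 7 of 14 at an unadjusted p under 0.05. The neutrophil list also had 0 of 14 called. Its count at an unadjusted p under 0.05 was 8 of 14 (57.1%) in DKO against WT. It was 2 (14.3%) in DKO against Stab1KO and 8 (57.1%) in DKO against Stab2KO, beside the shares of all genes just given. The contrasts without DKO arrays had 0 neutrophil markers at that level. The members' differences between DKO and WT are given beside each gene with and without DKO replicate 3, and their other DKO values without it are gathered after the counts of overlap.

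**Figure D1:**
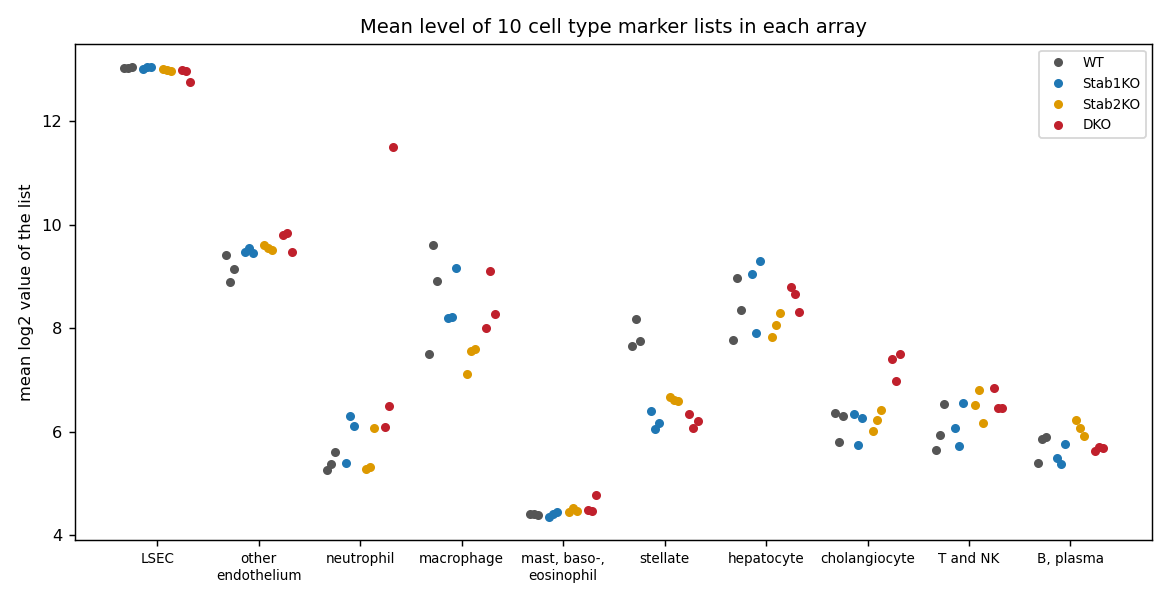
Mean log2 value of 10 cell type marker lists (x axis) on each of the 12 arrays (y axis, log2; 1 point per array, coloured by genotype). The LSEC list lies between 12.74 and 13.05 on every array, DKO replicate 3 has a neutrophil mean of 11.49, and the stellate cell list is higher in WT (7.65 to 8.17) than in the knockouts (6.05 to 6.67).

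Positions are those of the RefSeq annotation of GRCm38.p6. Btnl9 spans chr11:49168325-49187089 on the minus strand. Olfr1396, a gene of 0.98 kb also on the minus strand, lies at chr11:49112777-49113757, with 54.6 kb and 3 other olfactory receptor genes between it and Btnl9. On the other side Zfp62, at chr11:49203261-49218816, begins 16.2 kb from Btnl9 and is read in the opposite direction, and Mgat1 follows at chr11:49244191-49263027. Cnot6 (chr11:49671497-49713401), Gfpt2 (chr11:49794155-49838620) and Mapk9 (chr11:49846728-49886421) lie beyond 14 olfactory receptor genes, at 484.4 to 659.6 kb from Btnl9. Ltc4s, at chr11:50236461-50238532, is 1049.4 kb away. Olfr1372-ps1, annotated as a transcribed pseudogene at chr11:52154876-52157907, is 2967.8 kb away and belongs to another group of olfactory receptor genes. Without it, the members span 1.126 Mb, a stretch with 35 named measured genes.

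The 250 bases upstream of the annotated start are shown for the 4 members whose 3 DKO values lay below the values of all 9 other arrays (as for 4.73% of all genes), so that the sequences next to these differences can be compared. They come from RefSeq's GRCm38.p6 promoter table, which had windows for 8 of the 9 members. Each runs 5′ to 3′ on the gene's own strand and ends at the base before the start. The windows are chr11:49187090-49187339 (minus strand) for Btnl9, chr11:49113758-49114007 (minus) for Olfr1396, chr11:49243941-49244190 (plus) for the first of 3 windows of Mgat1, and chr11:50238533-50238782 (minus) for Ltc4s. Capitals mark matches, on either strand, to 6 motifs. These were the ETS family core CCGGAA, the motif of GATA factors GATAAG, the motif of SOX factors AACAAT, the motif of KLF factors CACCC, the TATA box TATAAA and the E-box CACGTG.
Btnl9: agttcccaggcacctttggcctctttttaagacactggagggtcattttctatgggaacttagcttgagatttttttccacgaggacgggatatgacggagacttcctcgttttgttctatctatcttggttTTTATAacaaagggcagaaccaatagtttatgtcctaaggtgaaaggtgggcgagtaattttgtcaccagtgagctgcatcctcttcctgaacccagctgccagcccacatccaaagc
Olfr1396: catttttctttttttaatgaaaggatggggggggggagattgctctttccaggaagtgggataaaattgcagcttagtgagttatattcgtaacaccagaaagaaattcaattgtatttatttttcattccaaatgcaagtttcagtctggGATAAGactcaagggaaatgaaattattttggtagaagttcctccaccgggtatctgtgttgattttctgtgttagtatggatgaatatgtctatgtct
Mgat1: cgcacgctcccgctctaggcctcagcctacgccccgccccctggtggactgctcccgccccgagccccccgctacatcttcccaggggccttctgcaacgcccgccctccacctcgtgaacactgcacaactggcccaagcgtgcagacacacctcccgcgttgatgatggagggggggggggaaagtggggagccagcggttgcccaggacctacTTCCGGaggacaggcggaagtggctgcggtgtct
Ltc4s: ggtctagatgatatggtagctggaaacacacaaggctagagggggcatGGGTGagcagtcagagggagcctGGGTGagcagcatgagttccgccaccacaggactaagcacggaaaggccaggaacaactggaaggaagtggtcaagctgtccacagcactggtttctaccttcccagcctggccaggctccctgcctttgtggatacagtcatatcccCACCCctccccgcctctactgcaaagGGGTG

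The 4 stretches share no motif in all of them. In windows of 300 bases, which add 50 bases after the start, Btnl9 had TATAAA on the opposite strand at position -118 and CACCC at position 32, and it held none of the other 4 motifs. Olfr1396 held GATAAG at -99 as its single match, Mgat1 held CCGGAA on the opposite strand at -34, and Ltc4s held 4 matches to CACCC, 3 of them on the opposite strand. Among the 32851 windows of the table, 13.6% held the TATA box motif, 7.44% the GATA motif, 14.9% the ETS core, 57.5% the KLF motif, 10.7% the SOX motif and 7.15% the E-box. Zfp62, the closest of the other 8 members to Btnl9, held CCGGAA at -3 in 1 of its 2 windows, where the match shares 1 base with a CACCC. The windows also differed in CG dinucleotides, with 5 in Btnl9, 3 in Olfr1396, 6 in Ltc4s and 22 in this Mgat1 window, beside a median of 7 over all windows and quartiles of 3 and 20. A match describes letters in the window and says nothing of a factor bound there.

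Btnl9 had similar levels in WT and Stab1KO cells, a lower level in Stab2KO cells and a far lower one in DKO cells. The WT arrays read 11.80, 11.70 and 11.52, the Stab1KO arrays 11.68, 11.25 and 11.43, the Stab2KO arrays 10.88, 11.19 and 10.51, and the DKO arrays 4.64, 5.33 and 4.72. WT and Stab1KO overlapped, every Stab2KO array lay below every WT and Stab1KO array, and the 3 DKO arrays stood more than 5 log2 units under all the others, with a gap of 5.18 to the nearest. The means were 11.67 ± 0.14 in WT, 11.45 ± 0.21 in Stab1KO, 10.86 ± 0.34 in Stab2KO and 4.90 ± 0.38 in DKO (SD, n = 3). As a description, the log2 difference of DKO was -6.78 ± 0.21 from WT, -6.56 ± 0.21 from Stab1KO and -5.96 ± 0.21 from Stab2KO. The DKO values lie around the array median of 5.11, where the share of background is unknown, so no linear fold is given. Without DKO replicate 3 the difference from WT was -6.69 ± 0.23, about as large as with the array of high neutrophil markers. The 13 markers of other endothelium had means of 8.90 to 9.40 in WT, 9.45 to 9.54 in Stab1KO, 9.52 to 9.61 in Stab2KO and 9.46 to 9.83 in DKO, with 4 of 13 called higher in DKO than in WT, and their part in the result was not tested. In these bulk samples, fewer cells that express a gene and less RNA per cell cannot be told apart.

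In the contrasts that hold no DKO array Btnl9 could be tested, although the WT arrays also serve in the contrast on which it was chosen. Stab2KO differed from WT by -0.82 ± 0.21, with a 95% interval of -1.28 to -0.35, and limma's adjusted p was 0.26. The Stab1KO difference from WT was -0.22 ± 0.21, with an interval of -0.68 to 0.24 and an adjusted p of 1. Stab1KO stood above Stab2KO by 0.59 ± 0.21 (adjusted p = 0.58). None of these passed the threshold of 0.05 after adjustment over all 24011 genes, and the intervals hold differences of up to 1.28 log2 units. Loss of Stab1 thus went with -0.22 where Stab2 was present and -5.96 where it was absent, a departure from additivity (the Stab1KO difference from WT less the DKO difference from Stab2KO) of 5.74 ± 0.30 that is given with no test.

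Olfr1396 had the same order of genotypes. Its WT arrays read 8.67, 8.31 and 7.92, its Stab1KO arrays 8.33, 7.99 and 8.32, its Stab2KO arrays 7.69, 7.60 and 6.43, and its DKO arrays 3.22, 3.82 and 3.78. Stab1KO lay within the range of WT, all Stab2KO arrays lay below both, with replicate 3 the lowest, and the DKO arrays lay 2.62 log2 units under the lowest of the rest. The means were 8.30 ± 0.38, 8.22 ± 0.19, 7.24 ± 0.70 and 3.61 ± 0.34 in that order of genotypes (SD, n = 3). The log2 difference of DKO was -4.69 ± 0.32 from WT, -4.61 ± 0.32 from Stab1KO and -3.64 ± 0.32 from Stab2KO, and without DKO replicate 3 the first was -4.78 ± 0.36. Stab2KO differed from WT by -1.06 ± 0.32 (95% interval -1.76 to -0.35, limma adjusted p = 0.40), and from Stab1KO, which stood 0.97 ± 0.32 higher, with an adjusted p of 0.54. Without Stab2KO replicate 3 the difference from WT shrank to -0.65, the smallest value with any 1 array left out. Stab1KO differed from WT by -0.08 ± 0.32. The departure from additivity was 3.55 ± 0.45.

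Across all genes, the 3 DKO arrays lay below all 9 other arrays for 1136 genes (4.73% of 24011) and above them for 611 (2.54%). A gap of at least 1 log2 unit below the other 9 was found for 2 genes, or 0.00833% of all, and these were Btnl9 and Olfr1396. Without DKO replicate 3 there were 4 such genes (0.0167%), Atox1 and Igsf23 besides these, both named after their values were seen. Stab1 and Stab2 cannot be in that count, since each was also low in its own single knockout. Among the 9 members, Mgat1 and Ltc4s also lay below all other arrays, with gaps of 0.34 and 0.65, and no member lay above them. In the order of differences between DKO and WT, Stab1 came first with -7.31, Btnl9 was the second, Stab2 came next with -6.40, and Olfr1396 was the fourth. This order describes the same contrast on which the members were chosen.

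**Figure D2:**
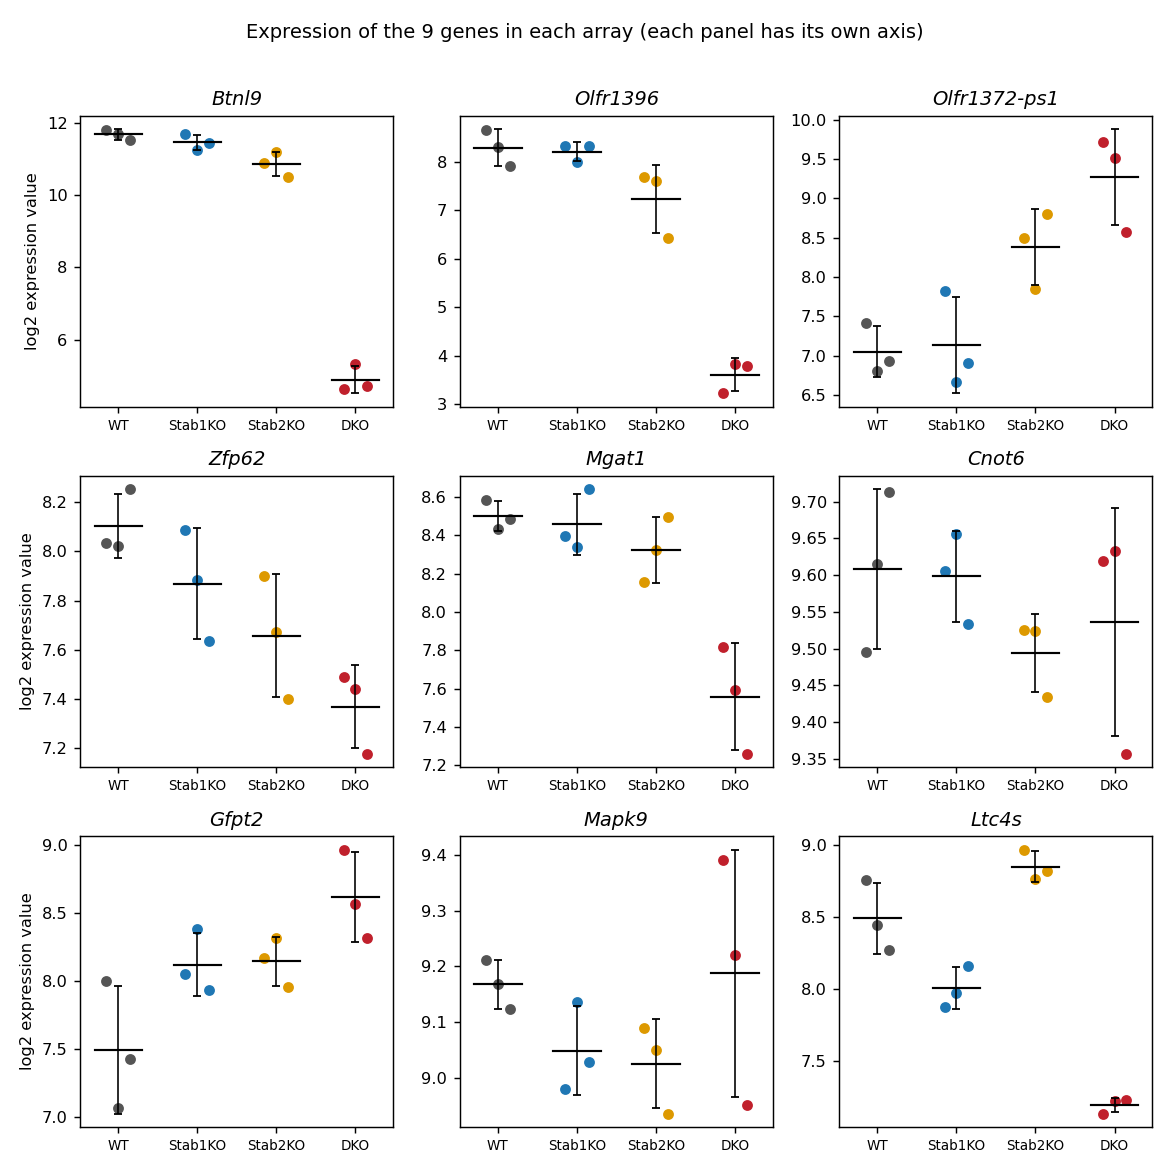
Log2 expression value (y axis, each panel with its own scale) of the 9 genes on each array, by genotype (x axis). Points are the 3 arrays of a genotype, the horizontal bar is their mean and the vertical bar 1 SD. The DKO arrays of Btnl9 lie between 4.64 and 5.33 and those of Olfr1396 between 3.22 and 3.82, under all other arrays of the same panel.

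The 3 olfactory receptor genes that lie between Olfr1396 and Btnl9, namely Olfr56, Olfr1395 and Olfr1394, had differences between DKO and WT of at most 0.20 in size. Olfr56 read 4.25, 4.53 and 4.45 in WT and 4.28, 4.22 and 4.13 in DKO, a log2 difference of -0.20 ± 0.08 (limma adjusted p = 0.27). Olfr1394, whose lower coordinate is 0.008 Mb from that of Btnl9, differed by -0.08 ± 0.11 (adjusted p = 0.79), and Olfr1395 by 0.10 ± 0.23 (adjusted p = 0.88). From Olfr1396 to Ltc4s the annotation holds 17 olfactory receptor genes besides Olfr1396, and in DKO against WT their differences ran from -0.30 to 0.52. limma called 0 of these 17 in each of the 6 pairwise contrasts, and at an unadjusted p under 0.05 the count was between 0 and 4 of 17 per contrast. It was 4 (23.5%) in Stab2KO against WT and 3 (17.6%) in Stab1KO against Stab2KO, beside 7.62% and 7.07% of all genes. In the DKO contrasts it was 2 or 3 (11.8% to 17.6%), beside 16.2% to 18.9% of all genes. Their values lay between 3.13 and 5.82 over all arrays, in the range where the share of background is unknown. Olfactory receptor genes also share sequence, and whether the probes of one bind transcripts of another was not analysed here.

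Over the whole family, 1089 olfactory receptor genes other than the members were measured. In DKO against WT limma called 1 of them, Olfr1371, and in DKO against Stab2KO it called 1, Olfr692, which was higher by 0.45 ± 0.10 (adjusted p = 0.038, lost when any of 6 single arrays was left out, namely WT replicate 1, Stab1KO replicate 2, Stab2KO replicates 1 and 2, or DKO replicates 1 and 2, with a highest adjusted p of 0.13). The other 4 contrasts called 0, with 21 to 40 genes (1.93% to 3.67%) at an unadjusted p under 0.05, beside 3.91% to 16.2% of all genes. The median difference between DKO and WT over the 1089 genes was 0.01, beside -0.02 over all genes tested.

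Olfr1372-ps1 was the member with the largest positive difference in DKO, and its Stab2KO arrays were also high. WT read 7.42, 6.81 and 6.93, Stab1KO 7.82, 6.67 and 6.91, Stab2KO 8.49, 7.85 and 8.80, and DKO 9.71, 9.52 and 8.57. WT and Stab1KO overlapped, Stab2KO lay above both, and DKO replicate 3 fell inside the Stab2KO range while the other DKO arrays lay above it. The log2 difference of DKO was 2.21 ± 0.37 from WT, 2.14 ± 0.37 from Stab1KO and 0.89 ± 0.37 from Stab2KO. Without DKO replicate 3 these became 2.56, 2.48 and 1.23, each ± 0.35. Stab2KO stood above WT by 1.33 ± 0.37, with a 95% interval of 0.51 to 2.15 and a limma adjusted p of 0.33, and Stab1KO stood below Stab2KO by -1.25 ± 0.37 (adjusted p = 0.48). Stab1KO and WT differed by 0.08 ± 0.37, with an interval of -0.74 to 0.90. The departure from additivity was -0.81 ± 0.53. The 6 cholangiocyte markers had means of 6.99 to 7.49 in DKO against 5.80 to 6.36 in WT, 5.75 to 6.34 in Stab1KO and 6.01 to 6.42 in Stab2KO, with 4 of 6 called higher in DKO than in WT, and their part in the Olfr1372-ps1 values was not tested.

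The genes on either side of this pseudogene were then examined. Olfr1371, a receptor gene at chr11:52213052-52213987 and 55.1 kb away, read 4.70, 4.55 and 4.67 in WT and 5.35, 5.48 and 5.31 in DKO. All DKO arrays lay above all WT arrays, and the log2 difference was 0.74 ± 0.12 (limma adjusted p = 0.015). The call was lost without WT replicate 2 (adjusted p = 0.079) or WT replicate 3 (adjusted p = 0.060). Its Stab2KO arrays, at 5.08, 5.05 and 5.32, differed from WT by 0.51 ± 0.12 with an adjusted p of 0.20. Olfr1373, 5.75 kb away on the other side and named after its values were seen, differed by 0.09 ± 0.15 between DKO and WT (adjusted p = 0.85).

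The mean of Zfp62 was highest in WT, then lower in Stab1KO, Stab2KO and DKO in that order, and each genotype overlapped the next. WT read 8.04, 8.02 and 8.25, Stab1KO 8.09, 7.88 and 7.64, Stab2KO 7.90, 7.67 and 7.40, and DKO 7.49, 7.44 and 7.18. Stab2KO lay below WT without overlap, and the DKO arrays lay below WT and Stab1KO but overlapped Stab2KO. The log2 difference of DKO was -0.73 ± 0.15 from WT, -0.50 ± 0.15 from Stab1KO and -0.29 ± 0.15 from Stab2KO, and without DKO replicate 3 the first was -0.64 ± 0.16. Stab2KO differed from WT by -0.45 ± 0.15 (95% interval -0.78 to -0.11, limma adjusted p = 0.47). The departure from additivity was 0.05 ± 0.21.

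Mgat1 encodes the N-acetylglucosaminyltransferase that starts hybrid and complex N-glycans, and its level was lower in DKO alone. WT read 8.59, 8.43 and 8.48, Stab1KO 8.40, 8.34 and 8.64, Stab2KO 8.15, 8.32 and 8.50, and DKO 7.82, 7.59 and 7.26. The 3 genotypes with at least 1 stabilin gene overlapped one another, and every DKO array lay below all of them. The log2 difference of DKO was -0.94 ± 0.14 from WT, -0.90 ± 0.14 from Stab1KO and -0.77 ± 0.14 from Stab2KO, and DKO replicate 3 was the lowest array. Without it the difference from WT was -0.80 ± 0.13. The single knockouts differed from WT by -0.04 ± 0.14 and -0.18 ± 0.14, with adjusted p of 1 and 0.85. The departure from additivity was 0.73 ± 0.20.

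The other enzymes of N-glycan processing and branching were read from a list of 16 further measured genes. In DKO against WT limma called 0 of 16, with 3 at an unadjusted p under 0.05 (18.8%, beside 16.7% of all genes). In DKO against Stab1KO it called 0, with 10 of 16 at an unadjusted p under 0.05 (62.5%, beside 16.2% of all genes). The median difference there was -0.21 beside -0.03 over all genes. In DKO against Stab2KO 1 was called higher and 1 lower, where 3.42% of all genes were called. The branching enzyme gene Mgat4a rose by 0.95 ± 0.23 (adjusted p = 0.049, lost without any 1 of the 12 arrays) and Mgat4b fell by 0.60 ± 0.13 (adjusted p = 0.034, lost when any of 7 arrays was left out, all but WT replicate 1, the 3 Stab1KO arrays and DKO replicate 2, up to an adjusted p of 0.12). In Stab1KO against WT the sialyltransferase gene St6gal1 rose by 0.35 ± 0.06 (adjusted p = 0.042, lost without any 1 array except Stab2KO replicate 3, up to an adjusted p of 0.26). The contrasts of Stab2KO with WT and of the single knockouts with each other called 0 of 16, with 1 and 3 at an unadjusted p under 0.05. These were 6.25% and 18.8%, beside 7.62% and 7.07% of all genes.

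Ltc4s, the enzyme that joins glutathione to leukotriene A4, had a different order of genotypes, with Stab2KO highest and DKO lowest. WT read 8.76, 8.45 and 8.27, Stab1KO 7.88, 7.98 and 8.16, Stab2KO 8.97, 8.76 and 8.82, and DKO 7.14, 7.22 and 7.23. No 2 genotypes overlapped: Stab1KO lay below WT, Stab2KO narrowly above it, and the closely grouped DKO arrays below all. Stab1KO was lower than Stab2KO by -0.84 ± 0.12, with a 95% interval of -1.11 to -0.57, and this was the single test over the 9 members that passed (limma adjusted p = 0.033), in a contrast where 0.108% of all genes were called. It rested on no DKO value, but the shared estimate of spread uses all 12 arrays. The call was lost under a replicate block (adjusted p = 0.11), with the 6 compared arrays alone (0.080), and when any of 9 single arrays was left out, every one but WT replicates 1 and 3 and DKO replicate 3, with an adjusted p of 0.057 to 0.17. Over all 12 omissions the difference ran from -0.92 to -0.78.

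Against WT, Ltc4s differed by -0.49 ± 0.12 in Stab1KO (adjusted p = 0.43) and by 0.36 ± 0.12 in Stab2KO (adjusted p = 0.47), and neither passed. DKO differed by -1.30 ± 0.12 from WT, -0.81 ± 0.12 from Stab1KO and -1.66 ± 0.12 from Stab2KO, and by -1.31 ± 0.14 from WT without DKO replicate 3. Loss of Stab2 thus went with 0.36 where Stab1 was present and with -0.81 where it was absent, a departure from additivity of 1.17 ± 0.17 that was not tested. Mast cells, basophils, eosinophils and macrophages are known sources of this enzyme. The 11 markers of mast cells, basophils and eosinophils had a mean between 4.35 and 4.79 on all arrays, with Cpa3 between 3.38 and 3.56, and 0 of 11 was called in any contrast. The 12 macrophage markers had means of 7.50 to 9.61 in WT, 8.20 to 9.16 in Stab1KO, 7.12 to 7.60 in Stab2KO and 7.996 to 9.11 in DKO, so the group in which Ltc4s was highest had the lowest mean of these markers, although WT replicate 1 lay in its range. The part of these cells in the Ltc4s values was not tested.

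Of 12 other measured genes of the leukotriene pathway, limma called 1, Mgst3, in DKO against Stab2KO, where 3.42% of all genes were called. This glutathione transferase gene fell by 0.76 ± 0.13 (adjusted p = 0.018), and the call was lost without Stab2KO replicate 1 or 2, with a highest adjusted p of 0.081. The other 5 contrasts called 0 of 12, with 0 to 2 (at most 16.7%) at an unadjusted p under 0.05. Over all genes this share was 16.7% in DKO against WT, 16.2% in DKO against Stab1KO and 3.91% to 7.62% without DKO arrays. Alox5, the lipoxygenase that opens the pathway, read 2.35 ± 1.28 higher in DKO than in WT (limma adjusted p = 0.39). The neutrophil list of DKO replicate 3 stood at 11.49, and the part of neutrophils in the Alox5 values was not tested.

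Gfpt2, the enzyme that commits fructose-6-phosphate to hexosamines, was lowest in WT and highest in DKO. WT read 7.998, 7.06 and 7.43, Stab1KO 8.05, 8.38 and 7.93, Stab2KO 8.17, 8.31 and 7.96, and DKO 8.97, 8.57 and 8.32. The single knockouts overlapped each other and WT replicate 1, while DKO lay above WT and just above Stab2KO but overlapped Stab1KO. The log2 difference of DKO was 1.12 ± 0.24 from WT, 0.50 ± 0.24 from Stab1KO and 0.47 ± 0.24 from Stab2KO, and the first was 1.27 ± 0.25 without DKO replicate 3. Stab1KO and Stab2KO stood above WT by 0.63 ± 0.24 (adjusted p = 1) and 0.65 ± 0.24 (adjusted p = 0.51), with 95% intervals of 0.11 to 1.15 and 0.13 to 1.17. The departure from additivity was 0.16 ± 0.33. The 12 stellate cell markers were also set apart in WT, with means of 7.65 to 8.17 against 6.05 to 6.67 in the knockouts and 6, 5 and 7 of 12 called lower in Stab1KO, Stab2KO and DKO than in WT. Their part in the Gfpt2 values was not tested.

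In the other 12 measured genes of the hexosamine pathway the calls were for lower levels. In DKO against WT 1 was called, the N-acetylglucosamine kinase gene Nagk, which fell by 0.62 ± 0.12 (limma adjusted p = 0.029, lost without any WT array or DKO replicate 1, up to an adjusted p of 0.12), and the median difference was -0.26 beside -0.02 over all genes. In DKO against Stab2KO 2 were lower and none higher. Uap1l1 fell by 0.58 ± 0.10 (adjusted p = 0.022, lost without Stab2KO replicate 1 or 2 or DKO replicate 1, up to an adjusted p of 0.089) and Nagk by 0.50 ± 0.12 (adjusted p = 0.047, kept without Stab2KO replicate 3 or DKO replicate 2 and lost without each of the other 10). The other 4 contrasts called 0 of 12. At an unadjusted p under 0.05 were 0 in Stab1KO against WT and 3 in Stab2KO against WT, beside 3.91% and 7.62% of all genes. There were 2 (16.7%) in Stab1KO against Stab2KO and 5 (41.7%) in DKO against Stab1KO, beside 7.07% and 16.2%. In DKO against WT there were 4 (33.3%) and in DKO against Stab2KO 7 (58.3%), beside 16.7% and 18.9%. Over all genes 1.8% were called in the former contrast and 3.42% in the latter.

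Cnot6 and Mapk9 were the members that varied least. Cnot6 read 9.50, 9.62 and 9.71 in WT, 9.61, 9.66 and 9.53 in Stab1KO, 9.53, 9.52 and 9.43 in Stab2KO, and 9.62, 9.63 and 9.36 in DKO. All knockouts overlapped WT, Stab1KO lay above Stab2KO, and the 12 arrays spanned 0.36 log2 units. The difference of DKO from WT was -0.07 ± 0.09, with a 95% interval of -0.27 to 0.13, and it was 0.02 ± 0.08 without DKO replicate 3. Cnot6 lies on the chromosome between Mgat1 and Ltc4s, both lower in DKO, and no cause of this arrangement was tested.

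Mapk9 read 9.21, 9.17 and 9.12 in WT, 8.98, 9.14 and 9.03 in Stab1KO, 9.09, 9.05 and 8.94 in Stab2KO, and 9.39, 9.22 and 8.95 in DKO. The Stab2KO arrays lay just below WT, and DKO replicates 1 and 2 lay above the other 9 arrays while replicate 3 lay near their lowest. DKO differed from WT by 0.02 ± 0.10 (95% interval -0.21 to 0.25), or by 0.14 ± 0.09 without DKO replicate 3. The single knockouts differed from WT by -0.12 ± 0.10 and -0.14 ± 0.10, with adjusted p of 1 and 0.83.

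The complexes of these genes were read from lists as well. Of 15 other genes of the CCR4-NOT deadenylase and its recruiting proteins, 2 rose in DKO against WT, the antiproliferative adaptors Tob1 by 1.44 ± 0.21 (limma adjusted p = 0.0078, kept without any 1 array, up to an adjusted p of 0.043) and Btg1 by 0.93 ± 0.19 (adjusted p = 0.038, lost without 8 of 12 arrays, all but Stab1KO replicates 1 and 2, Stab2KO replicate 3 and DKO replicate 1, up to an adjusted p of 0.15). The same 2 genes rose in DKO against Stab1KO, Tob1 by 1.64 (adjusted p = 0.010, 0.056 without Stab1KO replicate 2) and Btg1 by 1.10 (adjusted p = 0.029, lost without Stab1KO replicate 2 or 3, Stab2KO replicate 1 or DKO replicate 2, up to an adjusted p of 0.11). In DKO against Stab2KO 3 rose and 1 fell. There Tob1 rose by 1.43 (adjusted p = 0.012, lost without Stab2KO replicate 1 or 2, up to an adjusted p of 0.054), Btg1 by 1.35 (adjusted p = 0.012, up to 0.049 without any 1 array) and Btg2 by 0.96 (adjusted p = 0.041, lost without any of 8 arrays, up to an adjusted p of 0.14), and the subunit gene Cnot9, named after its value was seen, fell by 0.45 ± 0.09 (adjusted p = 0.034). The contrasts without DKO called 0 of 15, with 0 or 1 at an unadjusted p under 0.05. Of 13 other genes of the JNK pathway, 1 was called, Map3k1, which rose in DKO against Stab2KO by 0.35 ± 0.08 (adjusted p = 0.045, lost without 9 of 12 arrays and kept without Stab1KO replicates 1 and 3 or Stab2KO replicate 3). The other 5 contrasts called 0 of 13. At an unadjusted p under 0.05 were 4 (30.8%) in DKO against WT and 6 (46.2%) in DKO against Stab1KO. In DKO against Stab2KO there were 5 (38.5%). Over all genes these shares were 16.7%, 16.2% and 18.9%. The contrasts without DKO arrays had 0 or 1 of 13. Of 24 genes related to Btnl9, the other butyrophilin, Skint and B7 genes, limma called 0 in each of the 6 contrasts. In DKO against WT 4 (16.7%) had an unadjusted p under 0.05, the same share as over all genes. The other contrasts had 0 to 3 such genes. The gene of this list with the largest difference in DKO against WT was Cd80, a ligand on antigen-presenting cells, at 1.79 ± 0.81 (adjusted p = 0.30).

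The tests over the 9 members that the design allowed gave few calls. In Stab1KO against WT limma called 0 of 9, in a contrast where 0.308% of all genes were called, and 2 of 9 (Gfpt2 and Ltc4s) had an unadjusted p under 0.05, which 3.91% of all genes had. In Stab2KO against WT it called 0 of 9, against 0.296% of all genes, and 6 of 9 had an unadjusted p under 0.05, against 7.62% of all genes. These 6 were Btnl9, Olfr1396, Olfr1372-ps1, Zfp62, Gfpt2 and Ltc4s, and the WT arrays in this contrast are also those against which the members were chosen. In Stab1KO against Stab2KO, which shares no array with DKO against WT, it called 1 of 9, Ltc4s, against 0.108% of all genes, and 4 of 9 had an unadjusted p under 0.05, against 7.07%. The median difference of the 9 members was -0.08, -0.14 and 0.10 in these contrasts, beside 0.01, 0.01 and -0.0007 over all genes.

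Counted by overlap, 0 members lay wholly above and 1 wholly below WT in Stab1KO, where 10.1% of all genes had groups that did not overlap. In Stab2KO 2 lay above WT and 4 below, beside 15.7% of all genes, and between Stab1KO and Stab2KO 5 did not overlap, beside 12.6%. In the contrasts used to choose the members nothing is read from such counts. There 7 of 9 did not overlap between DKO and WT, 2 above and 5 below, where 24.0% of all genes did not overlap and 1.8% were called. Between DKO and Stab1KO 6 did not overlap (19.7% of all genes, 0.945% called), and between DKO and Stab2KO 5 did not (21.2%, 3.42% called).

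Without DKO replicate 3, an alternative added after the data were seen for what follows except the differences, fewer arrays made separation easier for members and other genes alike. Then 8 of 9 members did not overlap in each DKO contrast, beside 36.1% of all genes against WT, 30.2% against Stab1KO and 32.9% against Stab2KO. Btnl9, Olfr1396, Mgat1 and Ltc4s still lay below the other 9 arrays, as did 6.69% of all genes, and Olfr1372-ps1, Gfpt2 and Mapk9 now lay above them, as did 5.67%. The difference of DKO from Stab1KO and Stab2KO became -6.47 and -5.87 for Btnl9, -4.70 and -3.72 for Olfr1396, -0.75 and -0.62 for Mgat1, and -0.83 and -1.67 for Ltc4s. For Zfp62 it became -0.40 and -0.19, for Gfpt2 0.65 and 0.62, for Mapk9 0.26 and 0.28, and for Cnot6 0.03 and 0.13. The departure from additivity became 5.65 for Btnl9, 3.64 for Olfr1396, 1.19 for Ltc4s, 0.58 for Mgat1 and -1.15 for Olfr1372-ps1. It was -0.40 for Mapk9 and -0.14 for Cnot6, against -0.28 and -0.05 with all arrays, -0.042 for Zfp62 and 0.0039 for Gfpt2.

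**Figure D3:**
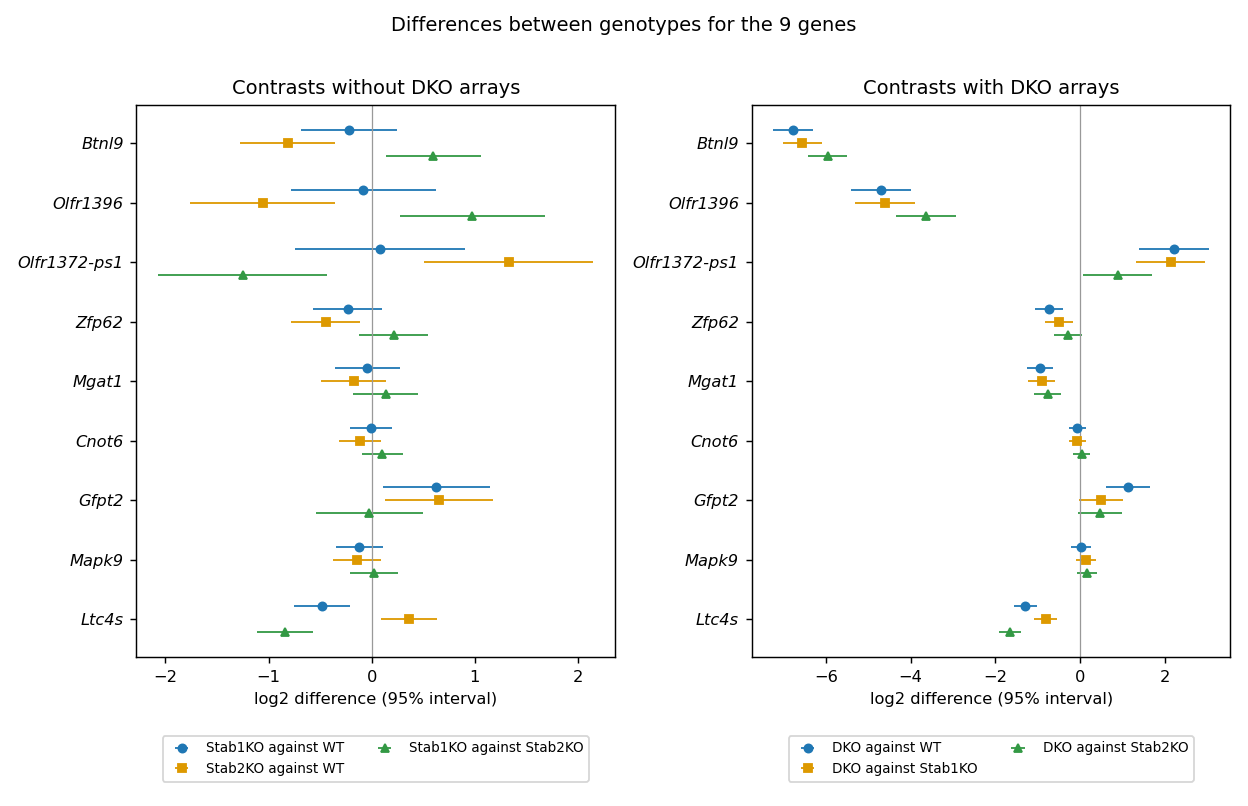
Log2 difference (x axis) with its 95% interval for the 9 genes (y axis), in the 3 contrasts without DKO arrays (left) and the 3 with them (right); the panels have different x axes. On the left Ltc4s in Stab1KO against Stab2KO, at -0.84, is the one difference with an adjusted p under 0.05; on the right, where no test was made, Btnl9 lies between -6.78 and -5.96.

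The remaining genes around Btnl9 were tested in every contrast. The members were taken from this region with the DKO values known, a choice that could leave genes with smaller DKO differences behind. The counts in the DKO contrasts therefore describe the genes left, and no conclusion on the whole region is drawn from them. Within 1 Mb of its lower coordinate, 32 other genes were measured, and 1 of them (3.12%) was called in DKO against WT, beside 1.8% of all genes. The other 5 contrasts called 0 of 32, with 0 to 9 at an unadjusted p under 0.05. The 9 (28.1%) were in DKO against Stab1KO, where 16.2% of all genes had such a p. Within 5 Mb there were 132 other genes, of which DKO against WT had 4 calls (3.03%), with 3 genes higher and 1 lower. There were 0 in DKO against Stab1KO and 5 (3.79%) in DKO against Stab2KO, 2 higher and 3 lower. In DKO against Stab1KO 33 of 132 had an unadjusted p under 0.05, a larger share than the 16.2% of all genes. That count was 26 (19.7%) in DKO against WT and 28 (21.2%) in DKO against Stab2KO, beside 16.7% and 18.9% of all genes. The 3 contrasts without DKO arrays called 0 of 132, with 1, 11 and 11 at an unadjusted p under 0.05. These were 0.758%, 8.33% and 8.33%, beside 3.91%, 7.62% and 7.07% of all genes. Within 20 Mb, 8 of 463 (1.73%) were called in DKO against WT. The median size of the difference between DKO and WT, regardless of sign, was 0.15 within 5 Mb and 0.12 over all genes.

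The called differences were all under 1 log2 unit in size, and most calls were lost when single arrays were left out. Without WT replicate 2 or WT replicate 3, 0 of the 132 genes were called in DKO against WT. Tbc1d9b, a gene for a Rab GTPase-activating protein 0.963 Mb away, fell by 0.51 ± 0.11 (limma adjusted p = 0.048), and the call was kept only without DKO replicate 2 or 3, with an adjusted p of up to 0.16. Shroom1, for a protein of the actin cytoskeleton, rose by 0.51 ± 0.10 (adjusted p = 0.031, lost without WT replicates 2 or 3 or DKO replicates 1 or 3, up to an adjusted p of 0.14), and Zfp354a, for a zinc finger protein, rose by 0.42 ± 0.09 (adjusted p = 0.043, kept only without WT replicate 1, up to an adjusted p of 0.15). Both also rose in DKO against Stab2KO, by 0.48 (adjusted p = 0.033, lost without any of 5 single arrays) and 0.40 (adjusted p = 0.039, lost without any of 8). There Ublcp1, a phosphatase gene, fell by 0.39 ± 0.09 (adjusted p = 0.042, kept only without Stab1KO replicates 1 or 3), as did Mgat4b, described above. One further called gene had a placeholder name.

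**Figure D4:**
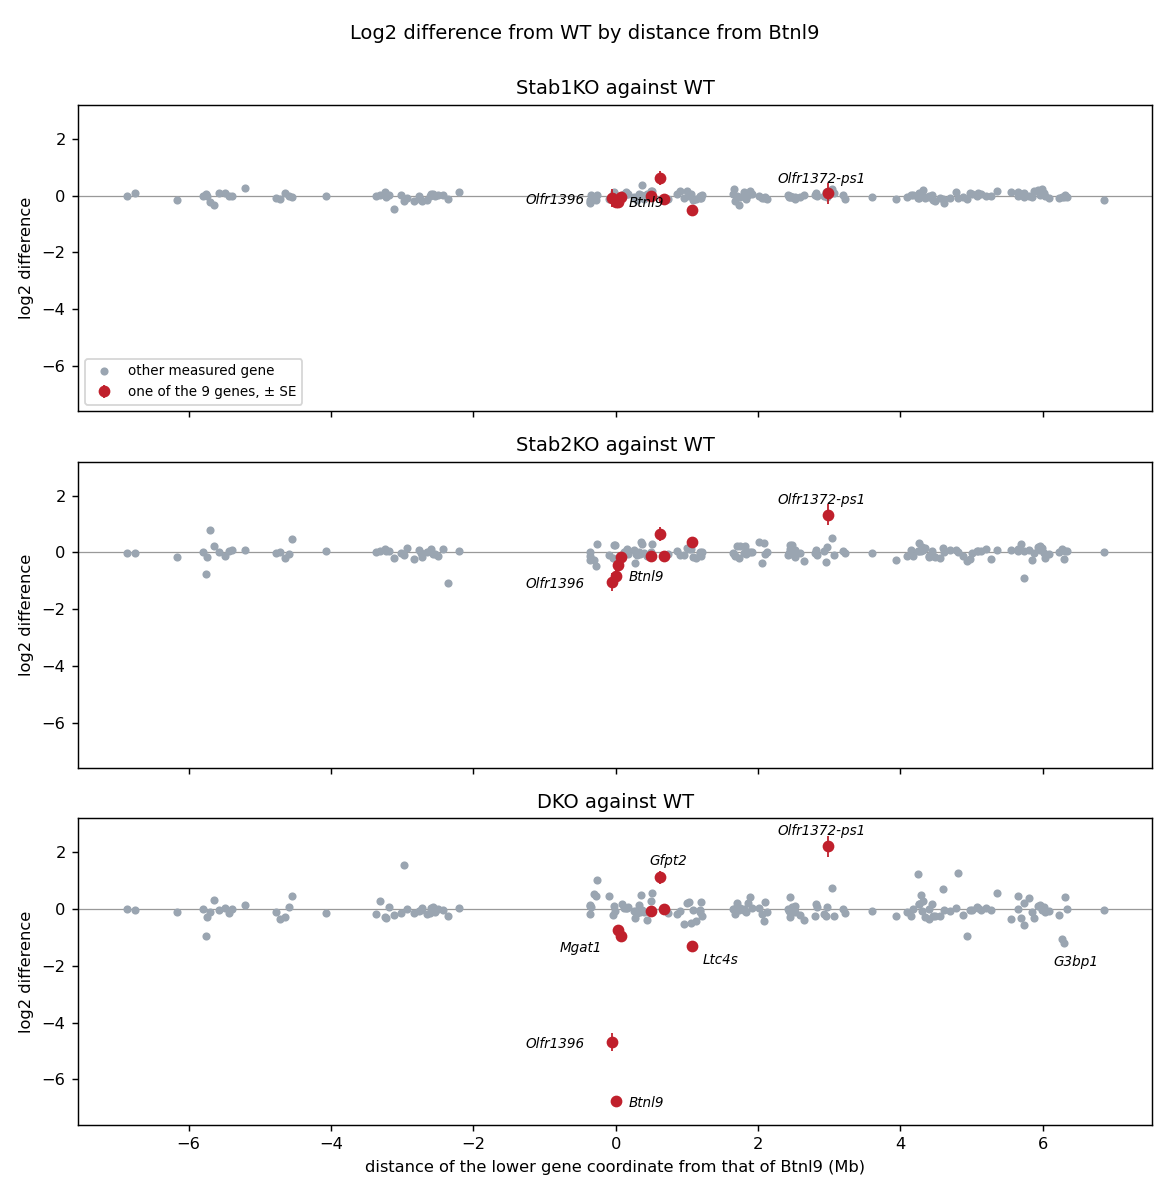
Log2 difference from WT (y axis) of each measured gene within 7 Mb of Btnl9, by the distance of its lower coordinate from that of Btnl9 (x axis, Mb), for Stab1KO (top), Stab2KO (middle) and DKO (bottom). Red points are the 9 genes with their SE and grey points the others. In DKO Btnl9 (-6.78) and Olfr1396 (-4.69) lie far below the genes around them, while Cnot6 (-0.07) and Mapk9 (0.02) lie near 0.

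Genes whose pattern over the arrays was most like that of Btnl9 were sought among 1193 genes whose SD over the 12 arrays was at least 0.5. The measure was Pearson's r over 12 arrays, given as a description with no p, because the arrays form separate groups and the 3 DKO arrays set most of its value. The member Olfr1396 had r = 0.98, and over the 9 arrays without DKO, an alternative added after the data were seen, it still had r = 0.92. Outside the members the highest were Star (0.97 over 12 arrays, 0.80 over 9), G3bp1 (0.95 and 0.64), Ces2e (0.92 and -0.09), Rab3b (0.91 and 0.72) and Igsf23 (0.89 and -0.19). Over the 11 arrays without DKO replicate 3, r was 0.98 for Olfr1396, 0.97 for Star, 0.95 for G3bp1, 0.89 for Ces2e, 0.88 for Rab3b and 0.88 for Igsf23. For Ces2e and Igsf23, r was near or below 0 once the DKO arrays were left out. Of these 5 genes, G3bp1, which encodes a protein of stress granules, lies on chromosome 11 too, at chr11:55469657-55500888 with 6.301 Mb between its lower coordinate and that of Btnl9. It read 10.81, 10.97 and 10.89 in WT and 9.81, 9.50 and 9.81 in DKO, a difference of -1.19 ± 0.13. Every DKO array lay below every other array, as for 4.73% of all genes. The SD limit and r both used the DKO arrays, so the search favoured genes set apart in DKO. The separation of G3bp1 is therefore no result beyond the search.

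For Olfr1372-ps1 the same search gave Rasl11a (0.93 over 12 arrays, 0.92 over the 9 without DKO), Ier2 (0.89 and 0.69), Cldn4 (0.88 and 0.74), Ier3 (0.87 and 0.70) and Cpm (0.87 and 0.74), with 1 gene of placeholder name passed over. Over the 11 arrays without DKO replicate 3 these 5 had r between 0.87 and 0.96. Rasl11a, a small GTPase gene on chromosome 5, read 6.19 and 6.34 in DKO replicates 1 and 2 and 5.18 in replicate 3, so it shared with Olfr1372-ps1 the lower value of that array. Ier2, an immediate early gene on chromosome 8, read 10.93, 10.96 and 10.59 in the DKO arrays and 9.47, 9.70 and 9.98 in WT. Among the members, Olfr1396 (-0.84) and Btnl9 (-0.79) had the strongest negative correlation with Olfr1372-ps1 over 12 arrays. Over the 9 arrays without DKO these were -0.69 and -0.71, and Cnot6 had the same -0.71 there against -0.27 over 12.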

How the data were processed

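The deposited table holds log2 expression values of 24973 rows on 12 arrays, which the authors made with RMA per the submitters' processing notes (background correction, quantile normalization and probe summary). The sources used here give no version or settings of it. On 11 arrays the sorted values were identical, and on the other they differed by at most 0.00187. The values carry no depth, so the number of arrays limits the precision. Of the rows, 24015 carried 1 gene symbol in the platform annotation and 958 none; the row with the highest mean was kept per symbol, leaving 24011 genes, of which 23918 had a position in RefSeq GRCm38.p6.

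All 12 arrays were fitted with limma 3.58.1 in R 4.3.3 (lmFit, eBayes, no covariates, so the 4 genotypes share 1 estimate of spread), with Benjamini-Hochberg adjustment over all genes, after a test on simulated data. The members and lists were chosen with earlier results of these data known. Named genes were the members, the neighbours nearest to Btnl9, called neighbours within 5 Mb, up to 3 called genes per pathway list (or the 1 with the largest change), and the 5 genes most correlated with Btnl9 and with Olfr1372-ps1; of the nearest neighbours, the values of the olfactory receptor genes beyond Zfp62 and Mgat1 are given only in the range of their group. Marker lists covered LSECs, other endothelium, neutrophils, macrophages, mast cells with basophils and eosinophils, stellate cells, hepatocytes (means 7.76 to 9.29 over the arrays), cholangiocytes, T and NK cells (5.65 to 6.85), and B and plasma cells (5.38 to 6.23). Alternatives were a replicate block, a low-signal filter, eBayes with trend and robust settings, array weights, renewed centring, all rows, the 6 compared arrays alone, and each array left out. Protein sequences were not used here.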

Additional observations from a re-analysis of the deposited data

Results flagged for a closer look

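Ltc4s was singled out because the loss of Stab2 went with opposite directions in the presence and absence of Stab1. With Stab1 present (Stab2KO less WT) the log2 difference was 0.36, which was not called (limma adjusted p = 0.47). The lowest Stab2KO array, at 8.762, lay just above the highest WT array, at 8.756. In this contrast 15.7% of all genes did not overlap. With Stab1 absent (DKO less Stab1KO) the log2 difference was -0.81. Every DKO array lay below every Stab1KO array, in a contrast where 19.7% of all genes did not overlap. The second log2 difference differs from the first by -1.17, and this was not tested, since Ltc4s was chosen with the DKO values known.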

How the results depend on the processing

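All 9 members kept the direction and size of their differences in the DKO contrasts under the processing alternatives within the spread between replicates, apart from Cnot6 and Mapk9 near 0; single arrays left out moved Btnl9 in DKO against WT between -6.99 and -6.65, and Olfr1396 between -4.88 and -4.50. In the contrasts without DKO arrays 14 values changed sign, all of them uncalled and near 0. Against WT with 1 array left out, the Stab1KO difference ran from -0.27 to 0.10 for Olfr1396, -0.27 to 0.31 for Olfr1372-ps1, -0.13 to 0.018 for Mgat1 and -0.066 to 0.043 for Cnot6, and Stab1KO against Stab2KO ran from -0.15 to 0.068 for Gfpt2 and -0.021 to 0.057 for Mapk9, which was -0.014 with array weights. Counts of called genes varied more. With array weights they were 148 in Stab2KO against WT, 41 in Stab1KO against Stab2KO, 1111 in DKO against WT (13 of them neighbours of Btnl9 within 5 Mb), 466 in DKO against Stab1KO and 1789 in DKO against Stab2KO. With the 6 compared arrays alone, which leaves fewer samples, they were 29, 15, 97 (1 neighbour), 18 and 4. With 1 array left out they ran from 46 to 81 in Stab1KO against WT, 33 to 92 in Stab2KO against WT, 12 to 43 in Stab1KO against Stab2KO, 125 to 510 in DKO against WT (0 to 5 neighbours), 22 to 357 in DKO against Stab1KO and 45 to 854 in DKO against Stab2KO. The causes were not tested. Samples of the same replicate number correlated between -0.06 and 0.29 in their deviations, so the numbers were not taken as pairs; with a replicate block the counts were 58, 68, 18, 508 (5 neighbours), 270 and 717 in the order just given, and Ltc4s lost its call. With 3 arrays per genotype, and no measure of signal over background, small differences and differences at low values could not be resolved.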

Other observations

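Irgm1 and Ifi47, which encode interferon-inducible GTPases and lie on the far side of Olfr1396 from Btnl9, had DKO values that differed widely between pools. Irgm1 read 10.56, 11.08 and 9.52 in DKO replicates 1 to 3, against 9.77, 9.85 and 9.90 in WT. Ifi47 read 9.03, 9.48 and 8.31 in DKO, against 8.34, 8.66 and 8.46 in WT. In both genes DKO replicates 1 and 2 were above all WT arrays and DKO replicate 3 was below them, and limma called neither in any of the 6 pairwise contrasts.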
